A study of Mus musculus with 12 samples.

Results

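The 37 genes encoded by mouse mitochondrial DNA were followed in 12 liver RNA-seq libraries, 4 in each of 3 groups. The genes are those whose symbol starts with mt- among the 55536 genes of the deposited tables: 13 mRNAs, 2 rRNAs and 22 tRNAs. All samples came from livers of wild-type C57BL/6J mice aged 8 weeks (strain C57BL/6 in the sample characteristics). Each group had received adenovirus (0.1 OD) into the tail vein: the controls carried a short hairpin RNA against bacterial lacZ (shLacZ), the others hairpins against G0s2 (shG0s2) or Rgs16 (shRgs16). At 12 days after the virus the livers were collected, at zeitgeber time 12 and after 6 h without food in the day. All 3 groups therefore share virus, fasting and hour, and the labels give no uninfected group, no knockdown restricted to one liver cell type and no batch. Nothing in the labels states that each replicate was its own mouse, and the p-values therefore cover only sample-to-sample spread, which may be technical.

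Mitochondrial DNA is a small circle transcribed on both strands into long precursors, from which tRNAs are cut out and thereby free the mRNAs and rRNAs between them. Its mRNAs encode core subunits of complexes I, III, IV and V of the respiratory chain, and its rRNAs and tRNAs serve the organelle's own ribosomes. All other subunits, and the factors that copy, transcribe and translate mitochondrial DNA, are imported products of nuclear genes. Liver is rich in mitochondria, which carry out fatty acid oxidation, ketone production and part of the urea cycle.

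Total counts ranged from 18458266 to 27170443 per library. All 19 hepatocyte markers examined had counts in every group. In CPM (counts per 1000000 counts of a library, with totals scaled by TMM over the 12 samples), G0s2 measured 66.6 to 87.4 in shLacZ and 24.6 to 49.3 in shG0s2, and Rgs16 measured 105 to 212 CPM in shLacZ and 14.4 to 37.4 in shRgs16. Rgs16 was also lower in shG0s2, at 43.9 to 71.3 CPM, with a log2 fold change of −1.32 (edgeR adjusted p = 0.00236) beside −0.98 for G0s2 itself (edgeR adjusted p = 0.00301). Both were smaller with library size alone, at −0.84 (edgeR adjusted p = 0.02) and −0.48 (edgeR adjusted p = 0.0551). Major urinary protein (Mup) genes held 10.5% ± 0.643 of all counts in the controls, against 1.15% ± 0.311 under shG0s2 and 2.28% ± 0.896 under shRgs16 (SD, n = 4 each). The share of any other gene in the library total moves with these values, so both scalings are given. TMM, which scales libraries to the bulk of genes, gave a median log2 fold change over all tested genes of 0.01 in each knockdown, and scaling by library total gave 0.50 in shG0s2 and 0.31 in shRgs16. Fold changes below are stated relative to the bulk of genes unless library size is named.

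A stretch of chromosome 1 matters for the reading of 6 mitochondrial mRNAs, because nearly the same letters stand in both places. Between bases 24612407 and 24616197 of chromosome 1 (GRCm38, minus strand) the nuclear genome holds 6 pseudogenes, all annotated as unprocessed, that match mitochondrial genes at 99.71 to 100% identity. They are Gm10222 for mt-Nd4l, Gm28438 for mt-Nd3, Gm28437 for mt-Co3, Gm10925 for mt-Atp6, Gm28661 for mt-Co2, and Gm29216 for the last part of mt-Co1. Aligned over 483 bases, Gm29216 differed from mt-Co1 by A1066T, and over 345 bases Gm28438 differed from mt-Nd3 by T3C (the mitochondrial base first, positions counted from 1 at the start of the mitochondrial gene). No difference was found between the other 4 pairs over 294 to 783 bases. At the edge of this stretch, Gm28439 (bases 24611535 to 24612410) matched mt-Nd4 over 876 bases, also without a difference. Its row averaged 6.05 counts beside 116622 for mt-Nd4, and it was left out of the sums used below. Shown next are the first 61 bases of mt-Nd3, which encodes a complex I subunit, and of its copy, the matching 61 bases of mt-Co1 and its copy, and the first 61 bases of mt-Co2 and its copy, read 5′ to 3′ from the annotated transcripts, with the differing base in capitals.
mt-Nd3: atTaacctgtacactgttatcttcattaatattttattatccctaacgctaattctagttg
Gm28438: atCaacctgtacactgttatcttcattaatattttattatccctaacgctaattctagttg
mt-Co1: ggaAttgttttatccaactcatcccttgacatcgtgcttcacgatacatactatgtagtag
Gm29216: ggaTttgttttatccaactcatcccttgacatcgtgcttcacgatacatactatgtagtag
mt-Co2: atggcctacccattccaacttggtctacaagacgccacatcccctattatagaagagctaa
Gm28661: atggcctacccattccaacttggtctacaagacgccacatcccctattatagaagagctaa

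These genes lie at MT 9459 to 9806 (mt-Nd3), MT 5328 to 6872 (mt-Co1) and MT 7013 to 7696 (mt-Co2), all on the plus strand. Their copies lie at chromosome 1, bases 24612775 to 24613119, 24615706 to 24616197 and 24614885 to 24615565.

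With mt-Co1 and mt-Nd4 set apart, the deposited counts put most reads of these sequences on the nuclear row. The mt-Co2 row held 1.57% of the counts of the mt-Co2 and Gm28661 pair in the controls, 1.42% under shG0s2 and 1.54% under shRgs16. mt-Atp6, the largest mitochondrial subunit of ATP synthase, was listed at 0 in all 12 samples, while Gm10925 averaged 79886 counts. A level for mt-Atp6 can therefore be read only from the sum of both rows. The mt-Co1 row, with a copy of its last part only, kept 96.2% in shLacZ.

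The part that fell to the mitochondrial row also moved between samples. For mt-Co3, a core subunit of cytochrome c oxidase, it was 2.75, 3.56, 4.16 and 3.0% in the shLacZ samples, and 2.51, 8.81, 4.38 and 8.98% in shG0s2. For mt-Nd4l, a small complex I subunit, the control samples had 3.95 to 7.41%, the shG0s2 samples 2.15 to 4.92% and the shRgs16 samples 2.37 to 3.22%. The shG0s2 values of mt-Co3 thus spread on both sides of the controls, and for mt-Nd4l the shRgs16 values all lay below them. The sum of a gene and its copy, called the pair sum here and chosen after the data were seen, does not depend on this division. Reads that arise from the nuclear stretch itself are included in it, and their part was not tested.

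**Figure D1:**
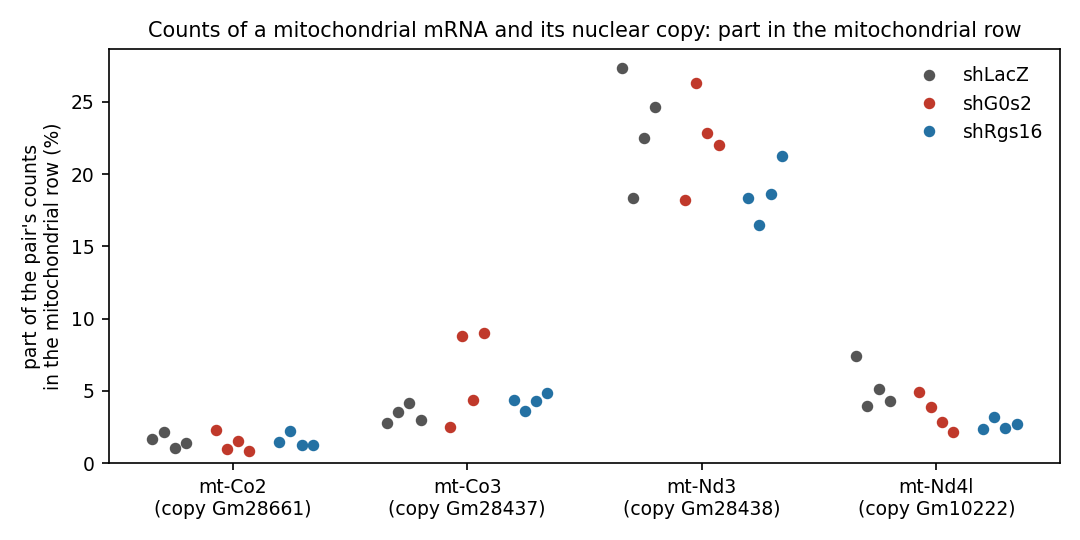
Part of the summed counts of a mitochondrial mRNA and its nuclear copy that the deposited tables give to the mitochondrial row, in percent (vertical axis), for 4 pairs (horizontal axis). Each point is 1 sample, coloured by group. The mt-Co3 row holds between 2.51 and 8.98% in shG0s2, a wider range than the 2.75 to 4.16% of shLacZ.

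Only some of the 37 genes had counts that could be tested. Of the 13 mRNAs 12 had counts, and both rRNAs did. Of the 22 tRNAs 10 had any count and 12 had none in the 12 samples, where a count of 0 allows up to 0.11 to 0.163 CPM (counting error only). The best covered tRNA rows were mt-Tp (tRNA for proline, 8649 counts on average), mt-Te (glutamate, 77.9), mt-Ts1 (serine, 3.58), mt-Tn (asparagine, 1.17), mt-Tq (glutamine, 1.02) and mt-Tc (cysteine, 0.368). The filter on low counts passed 16 of the 37 genes: 12 mRNAs, 2 rRNAs, mt-Tp and mt-Te. With pair sums mt-Atp6 joined them, giving 17.

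The ratio of deposited count to deposited TPM (a length-corrected unit of transcript abundance) shows that some rows do not behave like the annotated gene. For mt-Nd1, 957 bases long, the nuclear genes with the same ratio had a median length of 928 to 968 bases over the 12 samples. mt-Tp is annotated at MT 15356 to 15422 (minus strand) with 67 bases, yet its count per TPM was that of nuclear genes with a median length of 1375 to 1399 bases. The sequence of mt-Tp shows how short the annotated tRNA is beside that length.
mt-Tp: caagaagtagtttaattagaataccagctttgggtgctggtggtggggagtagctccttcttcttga

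mt-Te, annotated with 69 bases, matched nuclear genes of 1861 to 1886 bases in the same comparison. No nuclear gene of like length was available for mt-Tp or mt-Te. In shLacZ replicate 1 the nuclear rows Gm27463 and Gm24270, of 57 bases each, had counts per TPM of 65.2 and 3.43, beside 25.9 for mt-Tp and 37.4 for mt-Te. mt-Nd5 (1824 bases annotated) matched 4088 to 4418 bases and mt-Nd6 (519 bases) 683 to 747.5. The counts of mt-Tp and mt-Te are thus given as values of those rows, not of the tRNAs, and which sequence the authors counted under these names was not tested. For mt-Atp8, the short ATP synthase subunit of 204 bases, 0 nuclear genes had a like ratio, and no such comparison could be made. Its 8867 ± 435 counts in shLacZ became 47935 ± 3336 TPM (SD, n = 4). mt-Co1, with 530765 ± 36874 counts, had 16583 ± 1340 TPM.

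**Figure D2:**
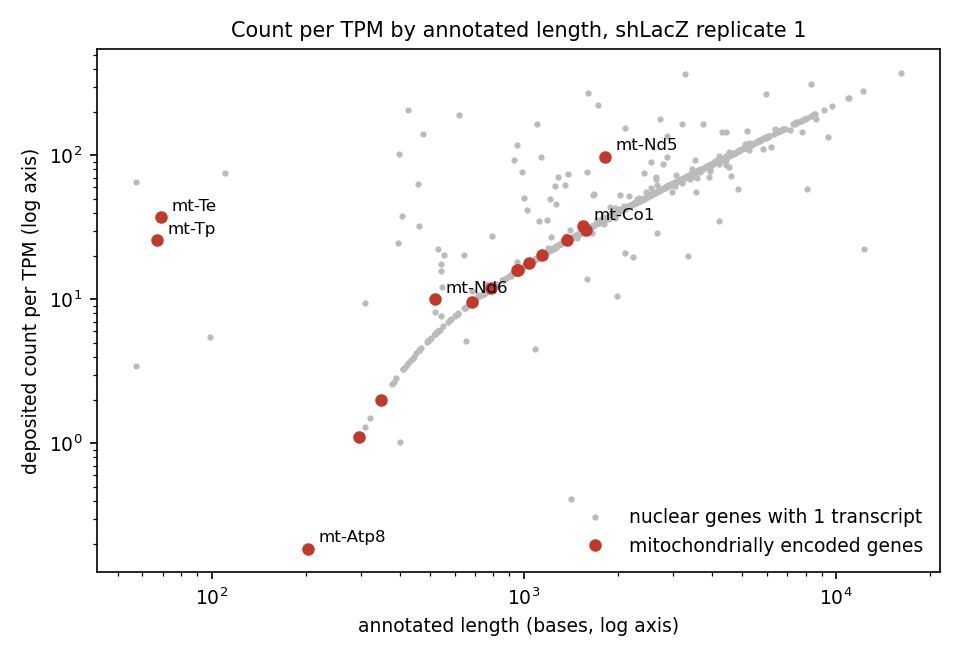
Deposited count divided by deposited TPM (vertical log axis) against annotated length in bases (horizontal log axis) in shLacZ replicate 1, for nuclear genes with 1 transcript (grey) and for mitochondrially encoded genes (red). mt-Nd5 (97.7) lies above the median of nuclear genes of like length (36.3), and mt-Atp8 has the lowest ratio of the labelled genes. No plotted nuclear gene has a length like that of mt-Tp or mt-Te.

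As a share of all counts, the 37 genes were lower in shG0s2 and higher in shRgs16 than in the controls. They took 5.93, 6.06, 6.54 and 6.22% of counts in the shLacZ samples, 5.60, 5.76, 5.43 and 5.30% in shG0s2, and 7.31, 7.64, 7.2 and 6.80% in shRgs16. The 3 groups did not overlap, and the ratio of group means to shLacZ was 0.893 for shG0s2 and 1.17 for shRgs16. The mRNAs made up most of this, with 6.06% ± 0.268, 5.40% ± 0.182 and 7.04% ± 0.380 of counts in the same order (SD, n = 4 each). These are deposited rows, without the reads on the nuclear copies. With the 6 copies added, the share was 7.93% ± 0.331, 6.94% ± 0.223 and 9.14% ± 0.401 in the same order, again without overlap.

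The choice of denominator mattered for shRgs16. Without the Mup genes in the total, the share of the deposited rows was 6.92% ± 0.249 for the controls, 5.59% ± 0.198 for shG0s2 and 7.41% ± 0.328 for shRgs16. The shG0s2 samples stayed below the controls, with a ratio of 0.808, while shRgs16 and shLacZ overlapped, with a ratio of 1.07. In deposited TPM shG0s2 (10.7% ± 0.381) overlapped with shLacZ (10.7% ± 0.495) and shRgs16 stood above both (13.2% ± 0.458). mt-Atp8 weighs heavily in TPM, with 47935 ± 3336 in shLacZ and 46239 ± 2562 in shG0s2 (SD, n = 4 each). Its part in this overlap was not tested. In bulk tissue, fewer cells of a type and less RNA per cell cannot be told apart.

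**Figure D3:**
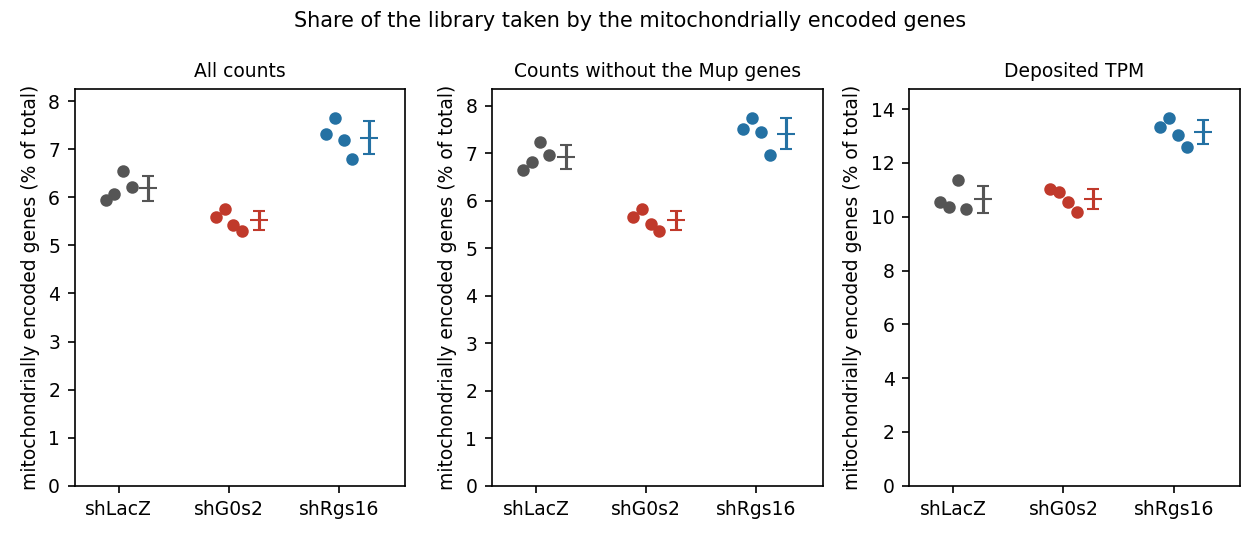
Percentage of each library's total taken by the 37 mitochondrially encoded genes (vertical axes) in the 3 groups (horizontal axes), with all counts, counts without the Mup genes, or deposited TPM as the total. Reads on the nuclear copies are not included. Points are samples and bars show mean ± SD; the shG0s2 samples lie below the shLacZ samples in the 2 count panels and overlap with them in TPM.

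The order of the mRNA genes was described per kilobase of annotated length as CPM of the library total divided by the length in kilobases, using pair sums. On the same strand mt-Atp8 and mt-Atp6 share 43 bases, and mt-Nd4l and mt-Nd4 share 7. The values are therefore those of annotated genes, not of separate RNA molecules. In shLacZ mt-Co1, the catalytic subunit of cytochrome c oxidase, had the highest level, 13720 ± 1003, followed by mt-Co2 at 10010 ± 537 (SD, n = 4 each). mt-Nd5, whose row matched longer genes in the comparison above, had 9513 ± 282, with a range that overlapped with that of mt-Co2. mt-Co3 had 7365 ± 290, mt-Nd1 5522 ± 443 and mt-Cytb, the core of complex III, 5385 ± 113, with overlapping ranges for mt-Nd1 and mt-Cytb. mt-Nd2 (4688 ± 81.0) and mt-Atp6 (4568 ± 330) did not separate either. At the lower end stood mt-Nd4 (3286 ± 74.9), mt-Nd3 (2234 ± 60.6), mt-Nd4l (2162 ± 115), mt-Nd6 (2159 ± 128) and mt-Atp8 (1671 ± 93.6), where the ranges of mt-Nd3, mt-Nd4l and mt-Nd6 overlapped. The row of mt-Nd6 also matched longer genes than annotated, so its place in this order depends on the length used. For the short genes mt-Atp8, mt-Nd3 and mt-Nd4l that comparison could not be made, and their places depend on the length correction too. In deposited TPM mt-Atp8 stood above mt-Co1 in shLacZ (47935 ± 3336 against 16583 ± 1340, SD, n = 4 each). Before pair sums the rows of mt-Co2 and mt-Nd4l gave only 155 ± 39.8 and 113 ± 35.9 on this scale.

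In shG0s2 livers, mitochondrial mRNAs were lower than in the controls, relative to the bulk of genes. By edgeR's quasi-likelihood test with Benjamini-Hochberg adjustment, 13 of the 16 tested members fell and 0 rose, against 29.2% of all tested genes that fell and 31.3% that rose. DESeq2 called 14 lower and 0 higher. The median log2 fold change of the 12 tested mRNAs was −0.74, beside 0.01 over all genes. With pair sums 16 of 17 fell, all 13 mRNAs among them, where 4557 of all 15587 tested genes were lower and 4873 higher. The fall depends on scaling in size: with library size alone 7 of 16 members were called lower and 0 higher, against 8.01% of all tested genes lower and 64.5% higher. The median of the mRNAs was then −0.25, beside 0.50 over all genes.

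Of the complex I genes without a pair sum, mt-Nd2 had the largest fall. It measured 5972, 5804, 5607 and 6043 CPM (scaled by TMM over the 12 samples) in shLacZ, and 3187, 3030, 3024 and 2957 in shG0s2. The groups did not overlap, and the log2 fold change was −0.93 (SE 0.0876, edgeR adjusted p = 2.61e-06). mt-Nd1 fell by 0.55, mt-Nd4 by 0.73, mt-Nd5 by 0.71 and mt-Nd6, the one mRNA gene on the minus strand, by 0.64 on the log2 scale. The values of mt-Nd1 (−0.06) and mt-Nd6 (−0.15) no longer passed the test with library size alone.

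For mt-Nd4l the row and the pair sum differed. The row held 59.5, 32.8, 36.5 and 32.3 CPM in shLacZ, of which replicate 1 stood apart, and 20.8, 15.5, 14.1 and 8.77 in shG0s2. It fell by 1.44 on the log2 scale (SE 0.306, edgeR adjusted p = 0.00492). The pair sum was 803, 829, 710 and 751 CPM in shLacZ and 421, 398, 492 and 407 in shG0s2, a fall by 0.84 (SE 0.0873) that lies within the range of the other mRNAs. In the authors' deposited table the log2 fold change of mt-Nd4l is −1.45.

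Among the cytochrome c oxidase genes, the mt-Co3 row showed no change that passed the test, whereas its pair sum fell. The row held 184, 252, 285 and 214 CPM in shLacZ and 96.0, 317, 173 and 333 in shG0s2, and its log2 fold change was −0.02 (SE 0.403, edgeR adjusted p = 0.977). The pair sum held 6694, 7087, 6865 and 7139 CPM in shLacZ and 3816, 3601, 3949 and 3712 in shG0s2. These groups did not overlap, and the log2 fold change was −0.87 (SE 0.0904). mt-Co2 changed from −0.85 (SE 0.389, edgeR adjusted p = 0.0995) for the row to −0.73 (SE 0.0904), past the threshold, for the pair sum. Without shG0s2 replicate 1 the row passed as well, at −1.21. mt-Co1 fell by 0.54 (SE 0.107), with library size alone −0.05 and not past the threshold.

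mt-Cytb fell by 0.75, and of the ATP synthase genes mt-Atp8 fell by 0.75 and the mt-Atp6 pair sum by 0.60 on the log2 scale. The pair sum of mt-Nd3 fell by 0.81. Of the rRNAs, mt-Rnr1 of the small ribosomal subunit measured 406, 447, 412 and 586 CPM in shLacZ and 221, 333, 235 and 245 in shG0s2, and fell by 0.83 (SE 0.155, edgeR adjusted p = 0.00115). mt-Rnr2 of the large subunit had a log2 fold change of −0.41 (SE 0.19, edgeR adjusted p = 0.0941) with overlapping groups. It passed the test without shLacZ replicate 3 (−0.52) or without shG0s2 replicate 2 (−0.57), and with DESeq2 (−0.41, DESeq2 adjusted p = 0.0287). In the authors' deposited table its adjusted p is 0.0332. With library size alone it was 0.10 and not past the threshold. The libraries were depleted of rRNA by the authors, so the rRNA values describe what was left after that step. The rows mt-Tp and mt-Te fell by 0.77 and 0.96. mt-Rnr1 (−0.33), mt-Te (−0.48) and the row of mt-Nd3 (−0.36) did not pass the test with library size alone.

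**Figure D4:**
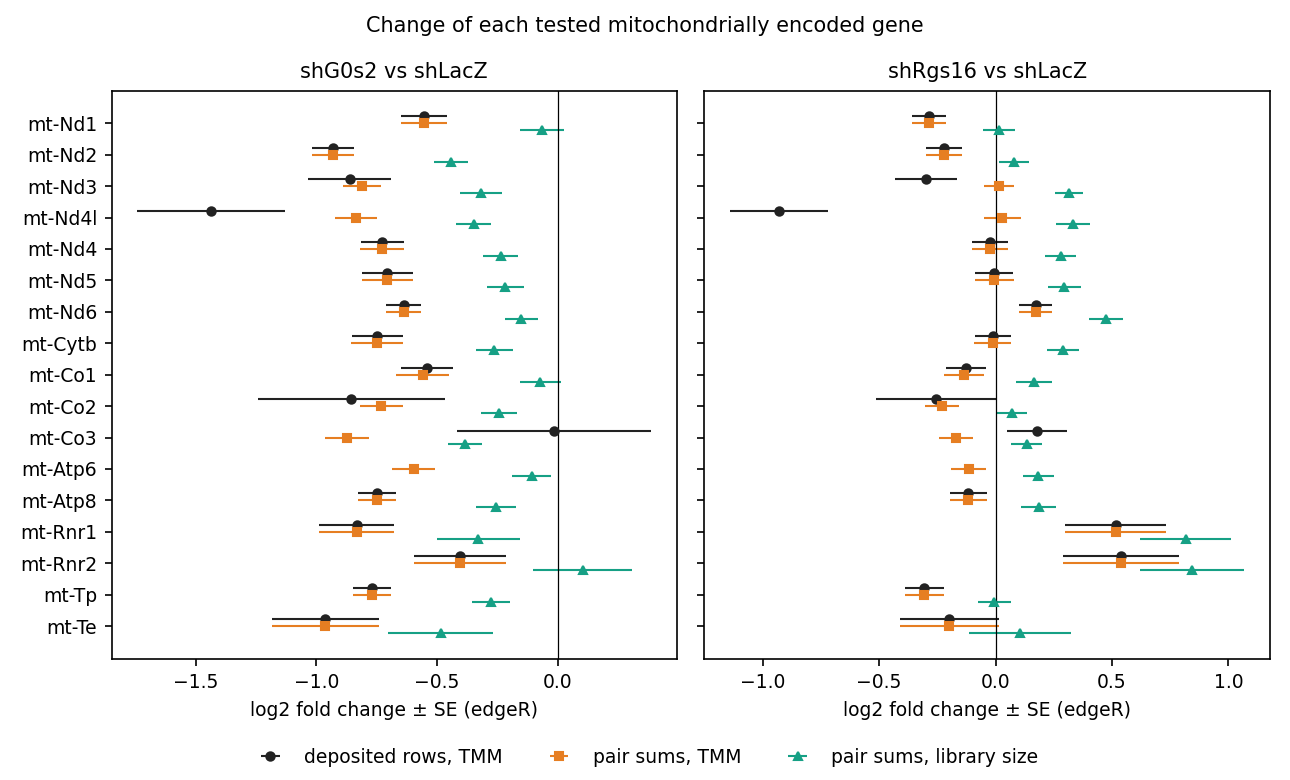
Log2 fold change ± SE (horizontal axes) of each tested mitochondrially encoded gene (vertical axis) in shG0s2 and shRgs16 against shLacZ, for deposited rows scaled by TMM, pair sums scaled by TMM and pair sums scaled by library size. In shG0s2 the TMM pair sums of the 13 mRNAs lie between −0.93 and −0.55, and in shRgs16 they lie between −0.28 and 0.17.

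In shRgs16 livers, most mitochondrial genes differed little from the controls relative to the bulk of genes. The test found 4 of 16 members lower (mt-Nd1, mt-Nd2, mt-Nd4l and mt-Tp) and 0 higher, against 24.5% of all tested genes lower and 24.6% higher, so the share of members lower was near the background. DESeq2 called 5 lower and 1 higher (mt-Nd6). The median of the 12 tested mRNAs was −0.12, beside 0.01 over all genes. With pair sums 4 of 17 fell and 0 rose, where 49.1% of all tested genes changed in either direction. Of all 15320 tested genes 3748 were lower and 3770 higher, so the share of members lower was again near the background. Among the members that fell, mt-Co2 (−0.23, SE 0.0722) took the place of mt-Nd4l. The sign of the median changed with scaling: with library size alone 7 of 16 members were called higher and 1 lower, against 50.1% of all tested genes higher and 8.35% lower, so here too the members were near the background. The median of the mRNAs was then 0.18, beside 0.31 over all genes. shRgs16 and shG0s2 were compared with the same 4 shLacZ samples.

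mt-Nd1 measured 6186, 6064, 6696 and 6445 CPM in shLacZ and 5233, 5141, 5300 and 5216 in shRgs16. The groups did not overlap, and mt-Nd1 fell by 0.28 on the log2 scale (SE 0.0728, edgeR adjusted p = 0.00671), while with library size alone it was higher by 0.015 and not past the threshold. mt-Nd2 fell by 0.22 (SE 0.0778, edgeR adjusted p = 0.0328) and lost the call when any of 6 of the 8 samples was left out. These were shLacZ replicates 1, 2 and 4 and shRgs16 replicates 1, 2 and 4, with adjusted p-values of 0.0622 to 0.0906.

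mt-Nd4l again depended on the row used. Its row held 20.3, 25.2, 20.1 and 19.0 CPM in shRgs16, all below the lowest control, and fell by 0.93 (SE 0.211, edgeR adjusted p = 0.00741). Its pair sum held 856, 783, 824 and 701 CPM in shRgs16, overlapping with the controls, and the log2 fold change was 0.03 (SE 0.0800, edgeR adjusted p = 0.783). The mt-Tp row fell by 0.31 (SE 0.0831, edgeR adjusted p = 0.00921), against −0.0052 with library size alone. The row of mt-Nd3 (−0.30, edgeR adjusted p = 0.0869) passed without shLacZ replicate 2 (−0.40), and mt-Nd6 (0.17, edgeR adjusted p = 0.0632) without shRgs16 replicate 4 (0.21).

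Both rRNAs varied widely among the shRgs16 samples. mt-Rnr1 measured 551, 469, 892 and 743 CPM there and mt-Rnr2 845, 642, 1356 and 1071, so replicates 3 and 4 were high in both. For mt-Rnr1, shRgs16 replicates 1 and 2 lay within the control range of 406 to 586 CPM. For mt-Rnr2, replicate 2 lay within that of 492 to 823 CPM. The log2 fold changes were 0.52 for mt-Rnr1 (SE 0.216, edgeR adjusted p = 0.0820) and 0.54 for mt-Rnr2 (SE 0.249, edgeR adjusted p = 0.110), not past the threshold. Without shRgs16 replicate 2 both passed, at 0.65 and 0.70, and mt-Rnr1 also passed without shLacZ replicate 4, at 0.65. They were 0.82 and 0.84 and passed the test with library size alone.

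Set against each other, shG0s2 livers had lower levels of mitochondrial genes than shRgs16 livers. Of 16 members 13 were lower and 0 higher, against 20.5% of all tested genes lower and 21.0% higher. With pair sums all 17 were lower, where 3288 of all 16013 tested genes were lower and 3357 higher. The pair sums of the mRNAs ranged from −0.88 (mt-Nd4l) to −0.28 (mt-Nd1) on the log2 scale, with a median of −0.72. Scaled by library size alone, 10 of 16 members were lower and 0 higher, against 9.81% of all tested genes lower and 37.8% higher. mt-Rnr1 was lower by 1.36 on the log2 scale (SE 0.212, edgeR adjusted p = 0.000396), mt-Rnr2 had −0.96 (SE 0.245), and mt-Nd6 had −0.82 (SE 0.0706).

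Scaling each library to the sum of the 13 mitochondrial mRNAs describes each member's proportion within them. By construction it sets the members near 0 and moves all other genes together, so the share of all genes called on this scale is printed beside each count and nothing is read from it. The adjustment for multiple tests also runs over all these genes, many of them called. Adjusted p-values and calls on this scale therefore do not control false discoveries among the members. In shG0s2, 2 of 16 members were lower against this sum and 0 higher, where 80.2% of all tested genes changed in either direction. mt-Nd2 made up 8.46, 8.02, 7.70 and 7.99% of the deposited mRNA counts in shLacZ and 6.66, 6.73, 6.41 and 6.72% in shG0s2. The groups did not overlap, and mt-Nd2 was lower by 0.28 on the log2 scale (SE 0.0826, edgeR adjusted p = 0.00665), a call that held in each leave-one-out fit (−0.30 to −0.25) and with pair sums (−0.25). mt-Nd4l was the other member, at −0.80 (SE 0.307, edgeR adjusted p = 0.0447). That call ended without shLacZ replicate 1 (−0.53) or 3 (−0.85), without shG0s2 replicate 2 (−0.83), 3 (−0.77) or 4 (−0.63), and with pair sums (−0.16). With pair sums mt-Co3 was lower instead, at −0.19 (SE 0.0816, edgeR adjusted p = 0.0442), and 81.3% of all tested genes changed.

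In shRgs16, mt-Nd6 took a larger part of the mitochondrial mRNA counts than in the other groups. mt-Nd6 encodes a complex I subunit and is read from the strand opposite to the other mRNAs. Its row equalled 1.83, 1.84, 1.89 and 1.84% of the mRNA sum in shLacZ, 1.88, 1.85, 1.85 and 1.9% in shG0s2, and 2.26, 2.24, 2.21 and 2.12% in shRgs16. Every shRgs16 sample was above all 8 others. The same held for the mt-Nd4 row, at 7.77 to 7.86% in shRgs16 against at most 7.66% in the others. With pair sums it also held for mt-Nd5 (22.98 to 24.64% against at most 22.78%). Neither mt-Nd4 nor mt-Nd5 passed the test on this scale. For mt-Nd6 the log2 fold change against the mRNA sum was 0.26 in shRgs16 over shLacZ (SE 0.0780, edgeR adjusted p = 0.0150), 0.28 with pair sums, and −0.24 in shG0s2 against shRgs16 (SE 0.0690, edgeR adjusted p = 0.00417). The first of these lost the call without shRgs16 replicate 1 (0.25, adjusted p 0.0516). Whether counting kept the strands apart is not given in the sources used here, and mt-Nd6 shares 14 bases with mt-Nd5 on the opposite strand, so reads of mt-Nd6 and of the RNA opposite to it cannot be told apart.

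mt-Nd4l was the other member called in shRgs16 on this scale, at −0.85 (SE 0.222, edgeR adjusted p = 0.0149), and 45.9% of all tested genes changed in either direction. With pair sums it was 0.13 and not past the threshold. mt-Rnr1 was at 0.61 (SE 0.220, edgeR adjusted p = 0.0515) and passed the test with pair sums (0.63, adjusted p 0.0445, with 47.0% of all tested genes changed). Without shRgs16 replicate 2 the deposited row also passed, at 0.76, as it did without shRgs16 replicate 1 (0.70) or shLacZ replicate 4 (0.73).

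Between the 2 knockdowns, mt-Nd1 was higher in shG0s2 against the mRNA sum by 0.30 (SE 0.0864, edgeR adjusted p = 0.00461), and mt-Rnr1 was lower by 0.78 on the log2 scale (SE 0.224, edgeR adjusted p = 0.00826). With mt-Nd6 these were 3 of 16 members, where 77.1% of all tested genes changed. With pair sums mt-Nd3 (−0.25) and mt-Nd4l (−0.29) were also lower, and 77.7% of all tested genes changed. mt-Nd1 made up 9.64, 9.92, 8.37 and 9.43% of the deposited mRNA counts in shG0s2 and 7.57, 7.21, 7.62 and 8.02% in shRgs16, without overlap.

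**Figure D5:**
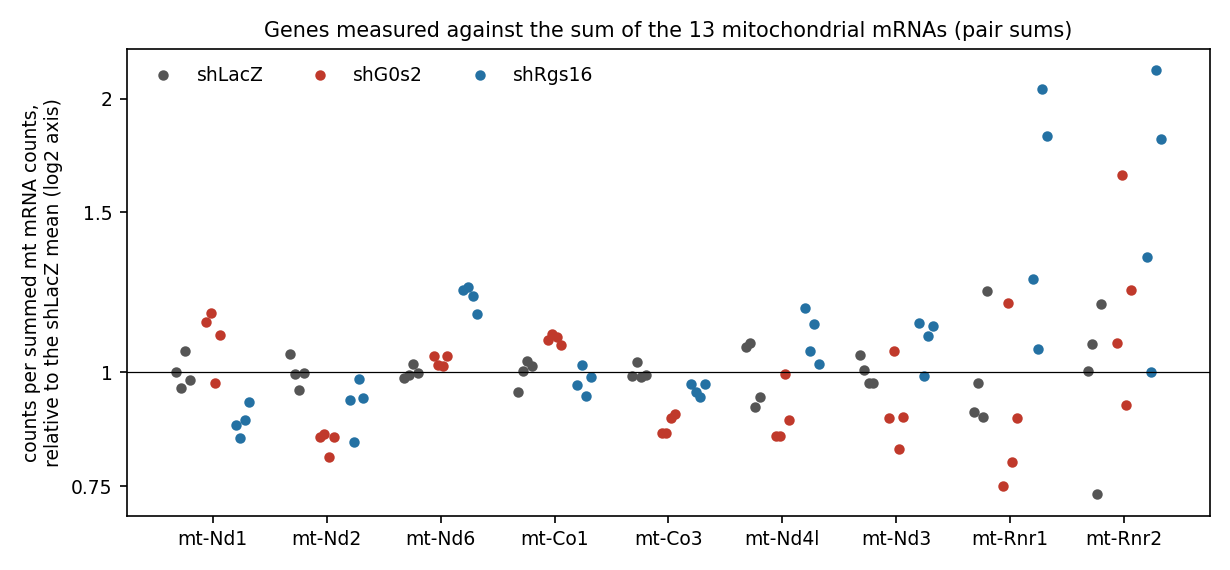
Counts of 9 mitochondrially encoded genes divided by the summed counts of the 13 mitochondrial mRNAs, relative to the shLacZ mean (vertical log2 axis), with pair sums. Each point is 1 sample; for mt-Nd6 the 4 shRgs16 samples lie above all others, for mt-Nd2 the shG0s2 samples lie below shLacZ, and the rRNAs spread widely in shRgs16.

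The nuclear partners of the mitochondrial subunits were also lower relative to the bulk of genes. The counts of the nuclear lists are to be read against all tested genes: with TMM 29.2% fell and 31.3% rose in shG0s2, and 24.5% fell and 24.6% rose in shRgs16. With library size alone 8.01% fell and 64.5% rose in shG0s2, and 8.35% fell and 50.1% rose in shRgs16. Of 37 nuclear complex I genes 35 fell and 0 rose in shG0s2, with a median log2 fold change of −0.58, and of 11 complex IV genes all 11 fell (median −0.51). With library size alone 10 complex I genes fell and 4 rose (median −0.10), and for complex IV 0 fell and 1 rose (median −0.02). Ndufb9 and Ndufb3, accessory subunits of complex I, fell by 0.86 and 1.04 on the log2 scale. In shRgs16, 33 of 37 complex I genes fell (median −0.36) and 10 of 11 complex IV genes (median −0.32), where the mitochondrial mRNAs had a median of −0.12. The complex I median in shRgs16 was −0.06 with library size alone. Ndufa10, a complex I subunit, fell by 1.68 in shRgs16 and Cox6a1, of complex IV, by 0.66.

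For complex III, 9 of 9 nuclear genes fell in shG0s2 and 8 of 9 in shRgs16, among them Cyc1 in shG0s2 (−0.71) and Uqcr11 in shRgs16 (−0.48). For complex V the numbers were 16 and 15 of 17. Atp5h fell by 0.72 in shG0s2 and Atp5o by 0.46 in shRgs16. With library size alone these medians were −0.05 and −0.02 in shG0s2 and 0.01 and −0.01 in shRgs16, and in each list at most 3 genes were called in a direction.

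Of the 20 genes for transcription and replication of mitochondrial DNA, 11 fell and 2 rose in shG0s2 (median −0.32; 1 fell and 7 rose with library size alone), and 7 fell and 1 rose in shRgs16 (median −0.15; 2 fell and 6 rose). The share that fell in shRgs16 was nearer to that of all genes than in shG0s2, and with library size alone a smaller share rose than of all genes in both knockdowns. Tfam, which packages mitochondrial DNA and starts its transcription, had a log2 fold change of 0.01 in shG0s2 (SE 0.0760, edgeR adjusted p = 0.943) and fell by 0.52 in shRgs16 (SE 0.0697). Tfam with library size alone was 0.50 and past the threshold in shG0s2, and −0.21 in shRgs16. Polrmt, the mitochondrial RNA polymerase, fell by 0.48 in shG0s2 and 0.24 in shRgs16, and neither passed with library size alone. Polg2, the accessory subunit of the mitochondrial DNA polymerase, fell by 0.97 in shG0s2.

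Lrpprc, whose protein stabilises mitochondrial mRNAs, fell by 0.50 in shG0s2 (−0.01 with library size alone) and was at −0.13 in shRgs16 (edgeR adjusted p = 0.162), where it was 0.17 and past the threshold with library size alone (edgeR adjusted p = 0.0351). Of 23 RNA processing and decay genes 13 fell and 2 rose in shG0s2 (2 and 15 with library size alone), and 12 fell and 1 rose in shRgs16 (4 and 6). Hsd17b10, a subunit of the enzyme that cuts the 5′ ends of mitochondrial tRNAs, fell by 1.26 and 0.64 in the same order, and by 0.78 and 0.34 with library size alone. Ppargc1a, a coactivator that drives mitochondrial biogenesis, fell by 0.65 in shG0s2 (−0.17 with library size alone, not past the threshold) and rose by 0.36 in shRgs16 (0.66 with library size alone).

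Of 78 mitochondrial ribosomal protein genes, 54 fell and 1 rose in shG0s2 (median −0.27), and 52 fell and 1 rose in shRgs16 (median −0.32). With library size alone 2 fell and 41 rose in shG0s2, and 15 fell and 9 rose in shRgs16, so that in both a smaller share rose than of all genes. Of 17 translation factors 12 fell in shG0s2 and 10 in shRgs16, and 0 and 1 rose (0 fell and 4 rose, and 4 fell and 2 rose, with library size alone). Of 20 mitochondrial tRNA synthetase and related genes 8 fell and 3 rose in shG0s2, and 7 fell and 1 rose in shRgs16. The numbers with library size alone were 2 and 12, and 1 and 6. With TMM larger shares of the ribosomal protein and translation factor genes fell than of all genes (29.2% in shG0s2 and 24.5% in shRgs16). For the synthetase and related genes the shares that fell were nearer to these. In each list a smaller share rose with TMM than of all genes.

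Markers of some other liver cells moved with the groups. The summed level of 16 macrophage markers was 1114 to 1274 CPM of the library total in the controls, against 2601 to 2824 for shG0s2 and 2027 to 2356 for shRgs16, with no marker at 0 in any group. In the TMM comparison 15 of these 16 rose in shG0s2, and 14 of 15 tested rose in shRgs16. For 16 stellate cell markers the sums were 324 to 428, 1551 to 1927 and 614 to 1067 CPM, with 15 rising and 1 falling in shG0s2 and 10 and 2 in shRgs16, and for 12 proliferation genes 85.9 to 101, 488 to 541 and 188 to 284 CPM. Of 19 hepatocyte markers 17 fell and 0 rose in shG0s2, and 11 fell and 2 rose in shRgs16. With library size alone 13 fell and 2 rose in shG0s2, and 6 fell and 5 rose in shRgs16. The summed CPM of these markers overlapped between shLacZ and shG0s2 (74619 to 84911 and 70626 to 94125). It was above every control in shRgs16 (94360 to 101709). Such a sum follows its most abundant genes. The albumin gene Alb averaged 2.80% ± 0.241 of the library among controls, 4.13% ± 0.778 under shG0s2 and 4.34% ± 0.281 under shRgs16 (SD, n = 4 each). The part of Alb in these sums was not tested. Of 16 endothelial markers 2 rose and 3 fell in shG0s2 (median 0.04), and 5 rose and 0 fell in shRgs16. Of 9 tested B cell markers 2 and 4 rose in the same order, and of 9 tested neutrophil markers 1 rose in each. Of 15 tested T and NK cell markers 12 and 13 rose, of 9 tested biliary markers 5 and 4, and of the erythroid markers 6 of 7 and 1 of 6. The erythroid marker Alas2 fell in both knockdowns. With TMM 31.3% of all tested genes rose and 29.2% fell in shG0s2, and 24.6% rose and 24.5% fell in shRgs16. The shares of endothelial, B cell and neutrophil markers that rose in shG0s2 were below that of all genes. In shRgs16 this held for neutrophil and erythroid markers. The part of these cells in the mitochondrial values was not tested.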

How the data were processed

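Total RNA from 12 mouse liver samples was treated with DNase I and depleted of rRNA, per the labels' protocols. The authors deposited 1 table per knockdown, each with the shLacZ columns, which were the same in both (8 columns compared, 0 values that differed). Per the file headers the tables hold counts per gene; many are not whole, so the deposited values were treated as estimated counts and rounded. The deposited TPM values were used as given by the authors, and their log2 fold change and p-value columns, per the file headers, only where the authors' deposited table is named. Tools listed without their roles, per the submitters' processing notes, are Bowtie2 2.2.9, SAMtools 1.9, GATK 3.8, fastp 0.19.5 and DESeq2. Which program counted reads, on which build, annotation and strand setting, is not given in the sources used here. Coordinates and sequences come from GENCODE vM21 (GRCm38).

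Each knockdown was compared with shLacZ in its 8 samples, and the knockdowns with each other in a model of all 12. Tests used edgeR 4.0.16 in R 4.3.3 (filterByExpr, TMM, robust quasi-likelihood F test, two-sided), with Benjamini-Hochberg adjustment over all genes and a false discovery rate of 0.05. For proportions, libraries were scaled to the summed counts of the 13 mitochondrial mRNAs. Nuclear copies were found by blastn 2.17.0 of all other transcripts against the mitochondrial transcripts (90% identity, 100 bases), and 6 of 17 had a mean of 10 or more counts. A count per TPM was matched to nuclear genes of 1 transcript within a factor of 1.15. Fits were run on simulated data with changes in both directions alike. These held no shift in composition like that of the Mup genes, so they do not bear on the choice of scaling. Alternatives were DESeq2 1.42.0, other scalings and filters, a replicate block, other sample sets, leaving out each sample, and pair sums. The shares of the library and levels per kilobase are descriptions with no test.

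The text names all mRNAs and rRNAs, the 6 tRNAs with most counts, Tfam, Polrmt, Lrpprc, Ppargc1a, and up to 2 genes per list with the smallest p. The members and lists were chosen with earlier results of these data known.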

Additional observations from a re-analysis of the deposited data

Results flagged for a closer look

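In 87 groups of 4 values examined (member levels, pair sums and shares), 3 had a sample whose gap to its neighbour exceeded Dixon's limit for 4 values as a part of the group's range, a limit that chance passes in about 1 of 20 groups. The mt-Nd4l row in shLacZ measured 32.3, 32.8, 36.5 and 59.5 CPM, and the gap below replicate 1 was 0.845 of the range. The share of counts on the tRNA rows in shLacZ was 0.0354, 0.0355, 0.0356 and 0.0412%, with replicate 1 again highest and a gap of 0.953 of the range. The 6 nuclear copies took 1.70, 1.71, 1.72 and 1.85% of counts in shLacZ, with replicate 3 highest and a gap of 0.873 of the range.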

How the results depend on the processing

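Of 1533 single values recomputed under an alternative, 1406 kept direction and side of the threshold. Members lower in shG0s2 against shLacZ numbered 7 with library size alone, against 13. Members higher in shRgs16, 0 with TMM, numbered 1 with DESeq2, with the filter of 1 CPM in 4 samples and with the replicate block, 3 with library size without members and Mup genes, 7 with library size alone and 9 with pair sums and library size. Members lower numbered 1, 1 and 0 under those 3 scalings, against 4. Leaving out 1 sample gave 0 to 2 higher and 3 to 4 lower in shRgs16. In shRgs16 mt-Nd5 (0.30), mt-Nd4 (0.28), mt-Cytb (0.29), mt-Nd1 (0.015) and mt-Nd2 (0.080) turned positive with library size alone, with or without pair sums. The pair sums of mt-Nd3 (0.32) and mt-Nd4l (0.33) did so too, and that of mt-Nd4l also with TMM (0.030). The cause of these shifts was not tested.

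Against the mRNA sum, members higher in shG0s2 numbered 1 with the replicate block (mt-Rnr2), against 0, and 0 to 1 with a sample left out, and members lower 1 to 3. In shRgs16, higher members numbered 2 with the median of ratios over the mRNAs and 2 with pair sums, against 1, and 1 to 3 with a sample left out, and lower members 0 with pair sums. Between the knockdowns, higher members numbered 2 with the median of ratios and 1 to 2 with a sample left out, and lower members 4 with pair sums and 2 to 3 with a sample left out. Pair sums turned mt-Co3 in shG0s2 (−0.19), mt-Nd4l in shRgs16 (0.13), and mt-Nd3 (−0.25) and mt-Nd4l (−0.29) between the knockdowns. Calls that leaving out a sample added here, beyond those already given, were mt-Nd3 (−0.38) and mt-Rnr1 (−0.33) without replicate 2 and mt-Co3 (0.93) without replicate 1 of shG0s2, against shLacZ. In shRgs16 they were mt-Rnr2 (0.80) without its replicate 2 and mt-Co3 (0.38) without shLacZ replicate 3. Between the knockdowns they were mt-Co3 (0.66) and mt-Cytb (−0.22) without replicates 1 and 3 of shG0s2, and mt-Nd2 (−0.19) without shRgs16 replicate 2. On the TMM scale between the knockdowns, mt-Nd4l (−0.74) and mt-Co2 (−0.98) passed without shG0s2 replicate 1. mt-Te lost its call (−0.74 to −0.55) without replicate 1 or 2 of shG0s2 or 2 or 3 of shRgs16.

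The log2 ratio of shares was −0.16 for shG0s2 over shLacZ, −0.31 without the Mup genes and 0.0020 in TPM (0.0012 for mRNAs, 0.092 for rRNAs). It was 0.23 for shRgs16 over shLacZ and 0.10 without the Mup genes, and −0.39 between the knockdowns and −0.30 in TPM. For rRNAs in shG0s2 it ran from −0.25 to 0.046 with a sample left out, and was positive without shG0s2 replicate 1 (0.0047) or 3 (0.042) or shLacZ replicate 4. For tRNAs in shRgs16 it was 0.13 in TPM and ran from −0.032 to 0.052, positive without shRgs16 replicate 1 (0.0071) or 2 (0.033) or shLacZ replicate 1.

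Same-numbered samples correlated at −0.07 to 0.14 over the 3 comparisons, and not every sample correlated best with its own number, so the numbers were not taken to pair samples. With the replicate block, 14 members were lower in shG0s2, and 5 lower and 1 higher in shRgs16, where mt-Nd2 was not called. The block also ended the call of mt-Nd6 against the mRNA sum in shRgs16 (0.26, edgeR adjusted p = 0.0582). Depth limits the tRNAs, of which 12 had no count.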
